A study of Mus musculus with 4 samples.

Results

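Aqp1 Fxyd2 macrophages of the mouse ankle synovium were compared by the variant of CD45 they carried, CD45.1 or CD45.2. In these mice the variant tells a cell descended from transplanted marrow from a cell of the recipient. The cells were chosen by their UMI counts of Fxyd2, Aqp1 and Vsig4 and of the 2 CD45 antibodies, in all 4 libraries. A cell had to have at least 300 genes, at most 10% of UMIs (unique molecular identifiers, each standing for 1 captured molecule) from mitochondrial genes, at least 5 UMIs of Fxyd2, at least 1 of Aqp1 and at most 1 of Vsig4. The variant came from antibody counts. A log2 ratio of (CD45.1 UMIs + 1) to (CD45.2 UMIs + 1) of at least 1 made a cell CD45.1, and one of at most -1 made it CD45.2. Of 14451 cells that passed the gene and mitochondrial limits, 1622 met the gene rule, and 1485 of these had a variant: 1085 were CD45.1 and 400 were CD45.2. The other 137, of which 134 were in 1 library, lay between the limits.

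All libraries came from bone marrow chimeras with the label CD45.1 B6 --> CD45.2 B6, that is, CD45.2 recipients of CD45.1 marrow whose ankles were shielded from the irradiation, so recipient cells of the joint could survive. The baseline library was taken on day 0 with no treatment. The peak, plateau and resolution libraries were taken on days 7, 14 and 56 after transfer of K/BxN serum, whose autoantibodies inflame the joints (STIA, serum-transfer arthritis). Their titles also carry the tag "Clo-lip", which no label explains and which cannot be told apart from arthritis itself. Live CD45+ CD11b+ cells without Ly6G, SiglecF, CD64, MHCII, Ly6c and CD177 were sorted, and RNA and surface antibodies were counted in the same cells by CITE-seq, in which each antibody carries a DNA barcode. There was 1 library per stage, and neither the number, the age nor the sex of the mice in each is given in the sources used here. The 2 variants of 1 library shared its mice, sort and droplet run, so the 4 libraries were the replicates of the comparison between variants, and stages are given as values with no test. The spread over libraries therefore also holds any difference between stages.

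Resident macrophages live in the synovium for long periods, with or without renewal from blood monocytes. They clear dying cells and debris and form a lining around the joint space. After transplantation, cells that carry the donor variant have come from marrow since the transplant, while recipient cells in a shielded joint include those that were there before. Aqp1 encodes a water channel, and Fxyd2 a small subunit that tunes the sodium pump. Vsig4, which the rule keeps low, encodes a complement receptor of resident synovial macrophages, and some cells here carried both Vsig4 and Fxyd2 RNA.

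The 2 antibodies that assigned the cells bind different variants of CD45, and each is counted through its own 15-base barcode. Whether both are counted equally well was not tested. These designed barcodes, written here in capitals throughout, are shown because all that follows rests on the split they make.
CD45.1: CCTATGGACTTGGAC
CD45.2: CACCGTCATTCAACC

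The antibody counts, which chose the groups and are a description, were well apart at the first 3 stages. CD45.1 cells had a median of 24 CD45.1 antibody UMIs at baseline, 26 at peak, 49 at plateau and 10 at resolution, beside medians of 1, 1, 1 and 0 CD45.2 antibody UMIs. CD45.2 cells had medians of 60, 87, 80.5 and 28.5 CD45.2 antibody UMIs, beside 0, 1, 1.5 and 1 of CD45.1. Resolution thus had the lowest counts of both antibodies, and it held nearly all cells between the limits. Just inside the limits, 126 cells had a ratio of 1 to 1.5 and 25 a ratio of -1.5 to -1. Just outside them were 43 cells with 0.5 to 1 and 12 with -1 to -0.5. At least 10 UMIs of both antibodies, as 2 cells in 1 droplet could give, were found in 1 CD45.1 cell at baseline and in 5 CD45.2 cells at peak and 3 at resolution.

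**Figure D1:**
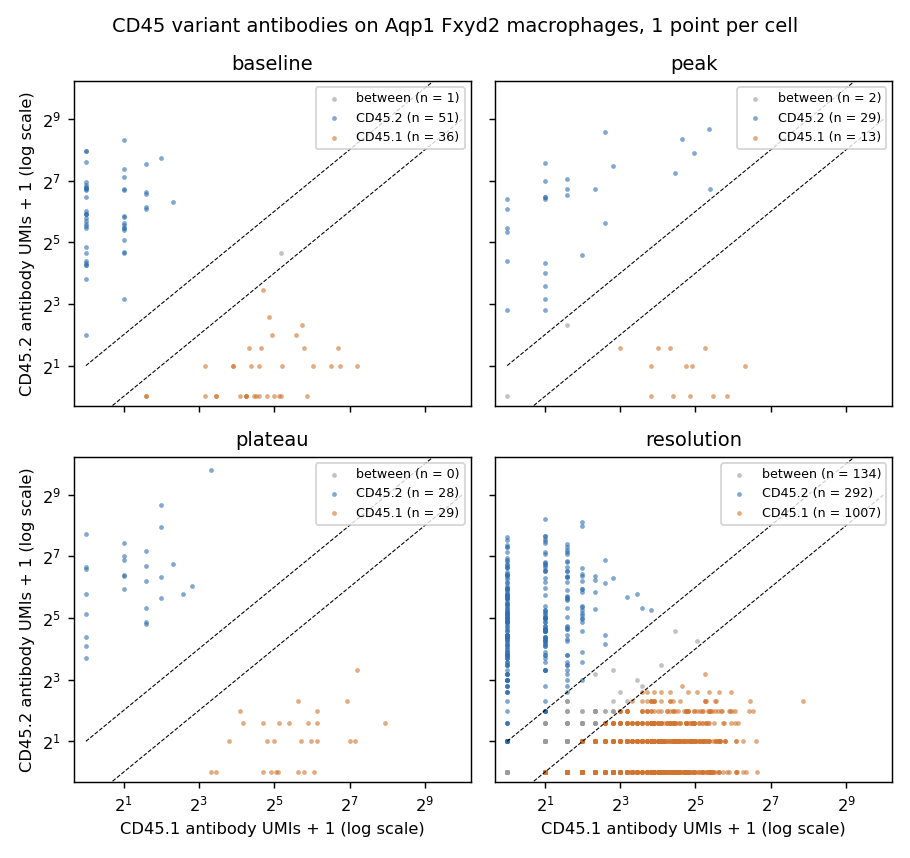
Antibody UMIs against CD45.1 (x axis) and CD45.2 (y axis) on each Aqp1 Fxyd2 macrophage, with 1 added, on log scales, 1 panel per library; the dashed lines are the limits of log2 ratio 1 and -1. Baseline, peak and plateau have at most 2 cells between the lines, and resolution has 134.

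The rule genes are also a description. The median Fxyd2 count per cell was 49.5 UMIs at baseline, 15 at peak, 11 at plateau and 29 at resolution in CD45.1 cells, and 54, 13, 21 and 42.5 in CD45.2 cells. Both variants had their highest medians at baseline and their lowest at peak or plateau. Of the cells with 3 or 4 Fxyd2 UMIs, just outside the limit, 85 were CD45.1 and 30 CD45.2, and of those with 5 or 6, just inside, 77 and 19 were. Aqp1 had 822, 392, 397 and 872 CPM (the usual depth-scaled unit: the UMIs of a gene relative to all gene UMIs of the summed cells) in CD45.1 cells from baseline to resolution and 1095, 210, 744 and 1097 in CD45.2 cells. Vsig4 had at most 2.27 CPM in CD45.1 cells and at most 10.8 in CD45.2 cells. Of the kept cells that were not chosen, 16.3% at baseline, 5.49% at peak, 14.0% at plateau and 37.1% at resolution had at least 1 Fxyd2 UMI. At least 5 were found in 7.83%, 1.39%, 3.03% and 12.6% of them, left out by the Aqp1 or the Vsig4 limit.

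The cells expressed macrophage genes, and some of them, above all at peak and plateau, also carried osteoclast genes. Of 12 macrophage markers, 11 or 12 were detected in every group, with a summed level of 9097 to 19039 CPM in CD45.1 and 8338 to 20735 CPM in CD45.2 cells. The kept cells that were not chosen also had all 12, at 18271 CPM at baseline, 15179 at peak, 10797 at plateau and 12827 at resolution, so these markers do not set the chosen cells apart from the rest of this myeloid sort. Of 8 osteoclast markers, 3 to 7 were detected. Ctsk, which encodes the collagen-cutting cathepsin K, had 2.27, 3613, 5233 and 329 CPM in CD45.1 cells from baseline to resolution and 180, 13543, 5180 and 362 CPM in CD45.2 cells. The summed osteoclast level ran from 9.08 CPM at baseline to 8534 at plateau in CD45.1 cells and from 203 CPM at baseline to 21924 at peak in CD45.2 cells. In the kept cells that were not chosen it was 72.7, 4960, 21846 and 1191 CPM from baseline to resolution. That was above both variants at plateau and resolution, below both at peak and between them at baseline. Cells with at least 20 osteoclast UMIs per 10000 numbered 0, 2, 3 and 68 of CD45.1 and 2, 10, 10 and 15 of CD45.2 at the 4 stages. They were a large part of the few CD45.2 cells at peak and plateau, so counts without them are given below. Of 10 fibroblast markers 4 to 10 were detected, with 53.9 to 374 CPM in all. B, T and NK cell, mast cell, basophil, erythroid and platelet markers summed to at most 19.9 CPM in any group.

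Depth differed more between libraries than between variants. Baseline, peak, plateau and resolution had 36, 13, 29 and 1007 CD45.1 cells and 51, 29, 28 and 292 CD45.2 cells, so all 4 libraries passed the minimum of 10 cells of each variant. Their summed gene UMIs were 440502, 165769, 352585 and 7754585 for CD45.1 and 538116, 580223, 316994 and 2134097 for CD45.2. Median gene UMIs per cell were 11325.5, 10885, 7729 and 6580 in CD45.1 cells, against 9624, 15651, 8706.5 and 6477.5 in CD45.2 cells. The peak library, with 13 CD45.1 cells, carries the largest counting error, and the resolution library the smallest. Cell barcodes were shared by libraries 27 times in all, and 5 chosen cells had such a barcode. Low sums of a gene do not tell fewer expressing cells from less RNA in each cell.

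In each of the 4 libraries a smaller share of the Aqp1 Fxyd2 macrophages than of the other kept cells carried the donor variant. CD45.1 made up 41.4% of them at baseline (36 of 87, exact 95% binomial interval 30.9 to 52.4), 31.0% at peak (13 of 42, 17.6 to 47.1), 50.9% at plateau (29 of 57, 37.3 to 64.4) and 77.5% at resolution (1007 of 1299, 75.2 to 79.8). Among the other kept cells CD45.1 made up 84.7%, 96.7%, 91.8% and 83.7%. The share was lower in the Aqp1 Fxyd2 macrophages in 4 of 4 libraries, with differences of -43.4, -65.7, -41.0 and -6.14 percentage points. The mean difference was -39.1 percentage points ± 24.6 (SD, n = 4), with an exact two-sided sign-flip permutation p of 0.13, the smallest that 4 libraries allow. Intervals cover counting error only. Without the resolution library the mean difference was -50.0 points, and without the peak library -30.2. The cells between the limits at resolution belong to neither share.

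Set against the Vsig4 macrophages (at least 2 Vsig4 and under 5 Fxyd2 UMIs), the direction was the opposite. Those held 0 CD45.1 and 20 CD45.2 cells at baseline, 2 and 19 at peak, 1 and 23 at plateau and 5 and 41 at resolution. The donor share of Aqp1 Fxyd2 macrophages was higher in 4 of 4 libraries, by a mean of 44.0 percentage points ± 18.6 (SD, n = 4, exact two-sided sign-flip permutation p = 0.13). Cells with at least 2 Vsig4 and at least 5 Fxyd2 UMIs belonged to neither population and counted among the other kept cells. At baseline the CD45.2 cells not chosen had medians of 5 Vsig4 and 4 Fxyd2 UMIs, and the CD45.1 ones 0 and 0. How far the donor shares depend on the Vsig4 limit was not tested. The other C1q macrophages (at least 10 UMIs of C1qa, C1qb and C1qc together, under 5 of Fxyd2 and at most 1 of Vsig4) held 7 CD45.1 and 17 CD45.2 cells at baseline, 390 and 13 at peak, 327 and 23 at plateau and 214 and 42 at resolution. CD45.2 cells thus outnumbered CD45.1 cells there at baseline, as they did among the Aqp1 Fxyd2 macrophages, while CD45.1 cells outnumbered them at the other 3 stages.

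Counted the other way, the Aqp1 Fxyd2 macrophages were a larger part of the recipient cells than of the donor cells. They were 4.46% of kept CD45.1 cells at baseline, 0.233% at peak, 1.21% at plateau and 31.0% at resolution. Of kept CD45.2 cells they were 26.8%, 13.2%, 11.7% and 40.0%. Both variants had their largest share at resolution. Each share is of a sorted sample, and the sort sets which cells it holds.

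**Figure D2:**
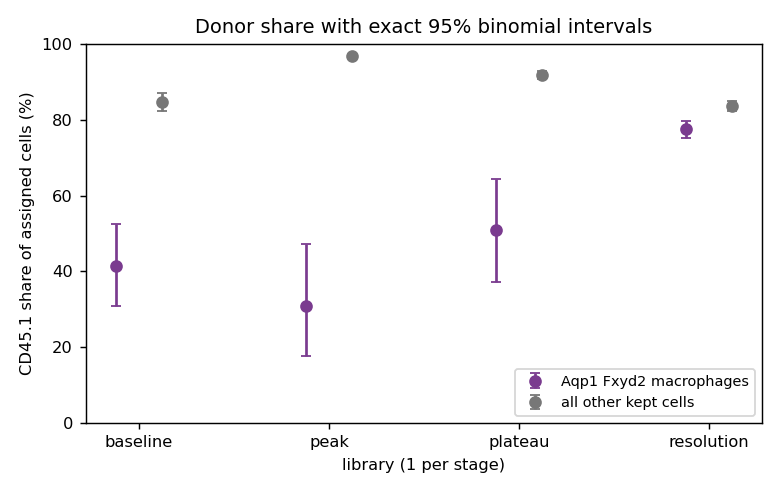
CD45.1 share (y axis, %) of cells with an assigned variant in each library (x axis), for the Aqp1 Fxyd2 macrophages and for all other kept cells, with exact 95% binomial intervals of counting error. The macrophages sit at 41.4%, 31.0%, 50.9% and 77.5%, below the other cells in each library.

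Which genes differed between donor and recipient Aqp1 Fxyd2 macrophages was tested on the summed UMIs of each variant in each library. CD45.1 cells had more RNA of Ccr2, Ltb4r1, Itgb7 and 6 of 13 tested antigen presentation genes, all 6 of the MHC class II pathway. CD45.2 cells had more RNA of Cpne8, Lyve1, Folr2, Colec12, Sparc and Gja1. By edgeR's quasi-likelihood test with the library as block, 191 of 5535 genes tested passed a Benjamini-Hochberg adjusted p of 0.05, which is 3.45%: 95 were higher in CD45.1 (1.72%) and 96 in CD45.2 (1.73%). Of the 191, 177 had the same sign in all 4 libraries. The 4 CD45.1 values and the 4 CD45.2 values did not overlap for 257 genes (4.64% of those tested), 92 of them among the 191. The median log2 ratio of all tested genes was -0.01. The calls depended on the paired design: with the library block left out, 12 and 15 genes passed. They also rested on the resolution library, which held most cells: without it 29 and 23 passed. Without the cells with osteoclast genes 127 genes were higher in CD45.1 and 145 in CD45.2, and 85 of the 89 and 79 of the 80 original calls still tested passed again. With the baseline and resolution libraries alone, 259 and 298 genes passed. Of the 5 tested osteoclast markers, Mmp9, a matrix-cutting protease also made by neutrophils, passed and was higher in CD45.2 (log2 ratio -1.11, adjusted p = 0.049), with 3 of 4 libraries in that direction. DESeq2 called 0 of the 5. From baseline to resolution Mmp9 had 0, 923, 513 and 1.55 CPM in CD45.1 cells and 1.86, 2602, 1013 and 0.469 in CD45.2 cells.

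**Figure D3:**
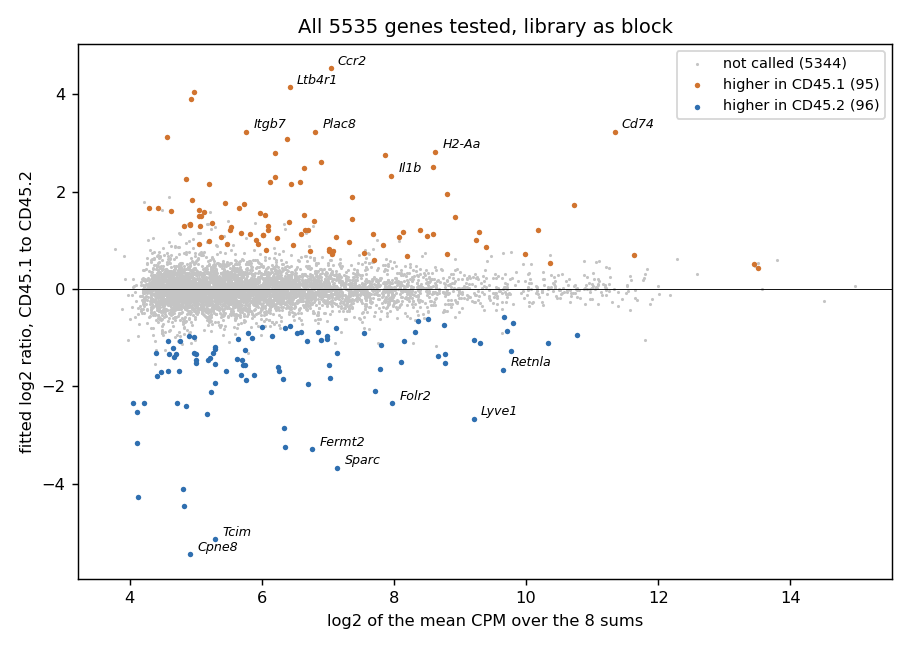
Fitted log2 ratio of CD45.1 to CD45.2 (y axis) against the log2 of the mean CPM over the 8 sums (x axis), 1 point per tested gene; coloured points passed an adjusted p of 0.05. The 95 genes higher in CD45.1 reach a log2 ratio of 4.53 (Ccr2) and the 96 higher in CD45.2 reach -5.45 (Cpne8).

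Ccr2, the receptor by which monocytes follow CCL2 out of the marrow and into inflamed tissue, had the highest ratio of the genes higher in CD45.1. It lies on chromosome 9 at 124101918 to 124109140 (GRCm38.p6, as are all coordinates here). It had 381 CPM at baseline, 277 at peak, 145 at plateau and 209 at resolution in CD45.1 cells, against 1.86, 25.9, 3.15 and 10.3 CPM in CD45.2 cells. Every CD45.1 value was above every CD45.2 value, and the fitted log2 ratio was 4.53 (SE 0.35, adjusted p = 2.6e-05, 23-fold). The cells between the antibody limits at resolution had 139 CPM, between both variants of that library.

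Ltb4r1, which encodes a receptor for the attractant leukotriene B4, had 177, 302, 62.4 and 116 CPM in CD45.1 cells and 3.72, 15.5, 0 and 9.84 in CD45.2 cells. Its groups did not overlap, with a log2 ratio of 4.14 (SE 0.28, adjusted p = 1.6e-05). Itgb7, a leukocyte integrin subunit that pairs with Itga4 or Itgae, had 88.5, 169, 42.5 and 93.4 CPM against 9.29, 12.1, 9.46 and 10.8. Its log2 ratio was 3.23 (SE 0.24). Selplg, the ligand by which leukocytes roll on selectins, had 152, 205, 113 and 171 CPM in CD45.1 cells and 44.6, 55.2, 75.7 and 70.8 in CD45.2 cells, a log2 ratio of 1.4. The groups of both genes were apart in all libraries, but the Selplg call was lost without the resolution library (log2 ratio 1.45).

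The other genes with the highest ratios were Plbd1 (a phospholipase B-like lysosomal protein, log2 ratio 4.04), Ramp1 (a subunit of the receptor for the neuropeptide CGRP, 3.90), Plac8 (a small protein of myeloid cells, 3.23), F10 (coagulation factor X, 3.12), Emb (the cell surface protein embigin, 3.09) and Napsa (the aspartic protease napsin A, 2.80). Ramp1 had 93.1, 24.1, 25.5 and 86.9 CPM in CD45.1 cells and 1.86, 5.17, 0 and 6.56 in CD45.2 cells, so its CD45.1 level was higher at baseline and resolution than at peak and plateau. Plac8 went the other way over stages, with 9.08, 458, 326 and 30.4 CPM in CD45.1 cells and 3.72, 65.5, 0 and 4.69 in CD45.2 cells. Its groups overlapped across stages and its 4 library ratios had an SD of 2.84, and DESeq2's Wald test did not call it (log2 ratio 3.34). The F10 call was lost when cells with 3 or 4 Fxyd2 UMIs were added (1.92).

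**Figure D4:**
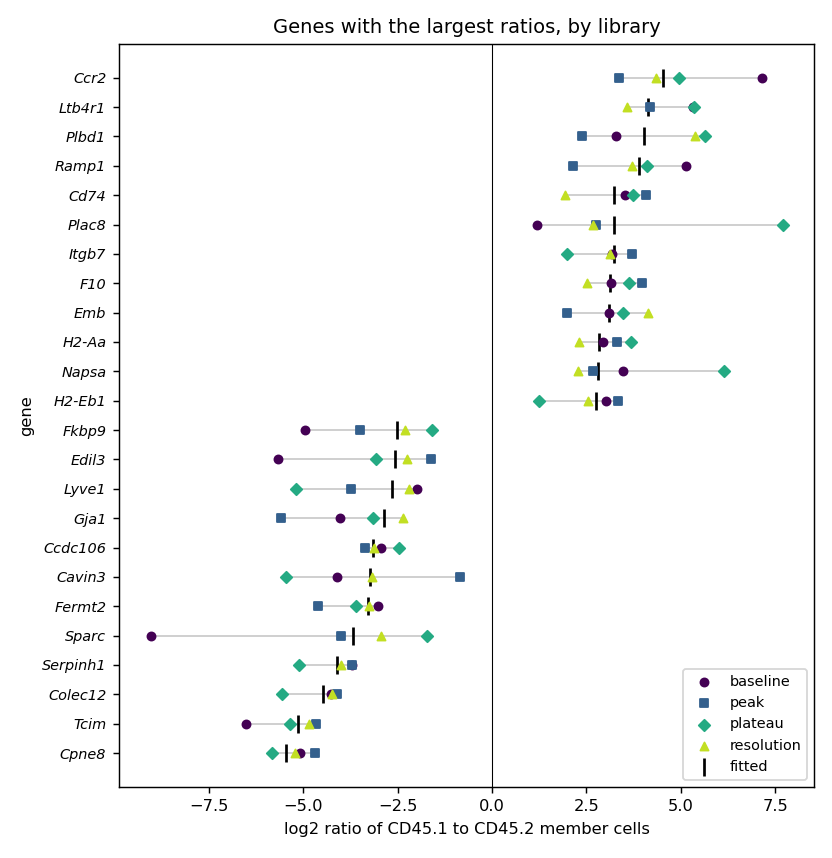
Log2 ratio of CD45.1 to CD45.2 (x axis) in each library, with 0.5 counts added to each sum, for the 12 genes with the highest and the 12 with the lowest fitted ratio under the naming rule (y axis); bars mark the fitted ratio. All 4 libraries lie on the same side of 0 for each gene, and Sparc, Plac8 and Cavin3 spread the most widely.

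The list of antigen presentation genes was not limited to MHC class II, and 13 of its genes were tested. Of these, 6 were higher in CD45.1 cells, none was higher in CD45.2 cells and 7 did not pass. All 6 belong to the class II pathway, which loads and displays antigen to CD4+ T cells. The list's median log2 ratio was 0.87 against -0.01 for all genes. Cd74, the invariant chain that guards the class II groove, had 3875, 3535, 562 and 9579 CPM in CD45.1 cells and 349, 203, 41.0 and 2583 in CD45.2 cells (log2 ratio 3.23, SE 0.31, adjusted p = 0.00011). H2-Aa, the alpha chain of I-A, had 583, 446, 99.3 and 1575 CPM against 78.1, 43.1, 6.31 and 330 (2.82, SE 0.22). H2-Eb1, the beta chain of I-E, had 325, 271, 39.7 and 971 CPM against 40.9, 25.9, 15.8 and 171 (2.75, SE 0.23). CD45.1 was higher in every library for these 3 genes, while the levels of both variants were highest at resolution and lowest at plateau, so the groups overlapped across stages. The other 3 called genes were H2-Ab1, the beta chain of I-A (log2 ratio 2.50), and H2-DMb1 and H2-DMa, the chains of the exchange factor that edits the bound peptides (2.62 and 2.49). The sort was for MHCII-negative cells.

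Promoters of 3 of the 6 called genes are shown, chosen after their matches were seen, from RefSeq's tables on GRCm38.p6, each from 250 bases before to 50 after the start of the gene on chromosome 17. H2-Aa lies on the minus strand (chr17:34287774-34288073), and H2-Eb1 (chr17:34305617-34305916) and H2-DMb1 (chr17:34152941-34153240) on the plus strand. Capitals mark CCAAT or its reverse complement ATTGG, both strands being searched. H2-Ab1 was not in the table. H2-DMa had 2 windows there, not shown, of which 1 held no match and the other 1 match, at -198.
H2-Aa: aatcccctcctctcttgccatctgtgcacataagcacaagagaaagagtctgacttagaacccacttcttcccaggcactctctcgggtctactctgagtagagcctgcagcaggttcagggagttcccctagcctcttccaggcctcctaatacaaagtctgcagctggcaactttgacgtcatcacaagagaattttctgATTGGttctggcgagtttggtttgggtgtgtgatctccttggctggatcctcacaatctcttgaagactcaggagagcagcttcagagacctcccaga
H2-Eb1: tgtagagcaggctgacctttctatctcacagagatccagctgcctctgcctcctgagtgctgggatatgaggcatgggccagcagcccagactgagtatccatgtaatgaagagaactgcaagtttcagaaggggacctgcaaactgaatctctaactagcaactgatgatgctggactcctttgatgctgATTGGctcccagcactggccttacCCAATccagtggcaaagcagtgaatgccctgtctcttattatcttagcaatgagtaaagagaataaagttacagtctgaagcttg
H2-DMb1: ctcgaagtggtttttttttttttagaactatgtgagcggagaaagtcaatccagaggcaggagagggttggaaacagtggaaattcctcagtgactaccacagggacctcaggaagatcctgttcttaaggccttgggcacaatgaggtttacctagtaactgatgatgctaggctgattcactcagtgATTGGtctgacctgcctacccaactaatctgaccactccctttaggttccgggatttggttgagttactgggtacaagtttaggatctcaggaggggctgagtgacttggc
The first match began at -48 from the start in H2-Aa, at -59 in H2-Eb1, which held 2, and at -61 in H2-DMb1. The motif is common: 12289 of 32851 promoter windows of this length (37.4%) held it. A match is not a shown binding site.

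Genes of resident macrophages were higher in CD45.2 cells. Of 10 tested markers of resident synovial macrophages, 6 passed in that direction (Folr2, Lyve1, Sparc, Gas6, Olfml3 and Cd163) and none in the other, with a median log2 ratio of -1.27 against -0.01 for all genes. Lyve1, a hyaluronan receptor of resident macrophages near vessels, had 2052, 272, 464 and 1175 CPM in CD45.2 cells from baseline to resolution and 495, 18.1, 11.3 and 247 in CD45.1 cells (log2 ratio -2.66, SE 0.34, adjusted p = 0.0011). CD45.2 was higher in every library, although the baseline CD45.1 value was above the peak and plateau CD45.2 values. Folr2, the folate receptor beta, had 621, 183, 508 and 388 CPM against 111, 6.03, 102 and 93.8, and its groups did not overlap (log2 ratio -2.35, SE 0.23). At resolution the cells between the antibody limits had 654 CPM of Lyve1 and 283 of Folr2, between the variants for both genes.

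Uptake and scavenger receptors, by which macrophages bind dying cells and debris, followed the same direction in 5 of 13 tested genes, with none higher in CD45.1. Of these 5, Folr2, Gas6 and Cd163 were already counted among the resident markers above, and Colec12 and Stab1 were not. Colec12, a collectin-type scavenger receptor, had 66.9, 50.0, 66.2 and 38.4 CPM in CD45.2 cells, and in CD45.1 cells 2.27, 0, 0 and 1.93. Its log2 ratio was -4.46 (SE 0.35, adjusted p = 2.6e-05), and the groups did not overlap. Gas6, which bridges dying cells to the receptors Axl and Mertk, had a log2 ratio of -1.83, with 336, 77.6, 202 and 225 CPM against 97.6, 6.03, 19.9 and 87.4. Stab1, a scavenger receptor known as stabilin-1, followed with -1.53. Cd163, the receptor for haemoglobin bound to haptoglobin, was higher in CD45.2 in 3 of 4 libraries (log2 ratio -0.87, adjusted p = 0.038); its call was lost without the baseline (-0.97), plateau (-0.83) or resolution library (-0.58) and in DESeq2 (-0.80).

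Several of the genes highest in CD45.2 cells were at or near 0 in CD45.1 cells. Cpne8, a calcium-dependent membrane-binding copine, on chromosome 15 at 90487481 to 90679388, had 39.0, 75.8, 78.9 and 46.4 CPM in CD45.2 cells. In CD45.1 cells it was at 0 in the first 3 libraries and at 1.16 CPM at resolution (log2 ratio -5.45, SE 0.38, adjusted p = 1.6e-05, 43.7-fold). Tcim, a small regulator of transcription and immune signalling, had 106, 74.1, 56.8 and 75.0 CPM in CD45.2 cells, and in CD45.1 cells it was at 0, 0, 0 and 2.45 CPM (-5.14). No CD45.2 value of either gene was near a CD45.1 value. Ccdc106, a coiled-coil protein, had 44.6, 29.3, 22.1 and 31.4 CPM against 4.54, 0, 2.84 and 3.48 (-3.16).

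Among the other genes with the lowest ratios, Sparc, a collagen-binding matrix protein, had 621, 140, 41.0 and 278 CPM in CD45.2 cells and 0, 6.03, 11.3 and 34.9 in CD45.1 cells. Its log2 ratio was -3.67 (SE 0.51, adjusted p = 0.0018), its library ratios had an SD of 3.21, and DESeq2 did not call it (-4.17). Serpinh1, the collagen chaperone Hsp47, had 76.2, 37.9, 47.3 and 53.9 CPM against 4.54, 0, 0 and 3.22 (-4.11). Fermt2, the integrin activator kindlin-2, had 314, 70.7, 120 and 290 CPM against 36.3, 0, 8.51 and 29.5 (-3.29), and all CD45.2 values of both genes were above all CD45.1 values.

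Gja1, the gap junction protein connexin 43, had 94.8, 141, 265 and 96.1 CPM in CD45.2 cells and 4.54, 0, 28.4 and 18.1 in CD45.1 cells (log2 ratio -2.85, SE 0.29). Cavin3, a coat protein of caveolae (-3.24), Edil3, a secreted ligand of integrins (-2.56), and Fkbp9, a folding enzyme of the endoplasmic reticulum (-2.52), completed the 12, and their calls were lost without the resolution library (-3.33, -3.31 and -3.27). The fibroblast markers summed to 53.9 to 374 CPM in CD45.2 cells and 54.3 to 244 CPM in CD45.1 cells, and the sum was higher in CD45.2 at peak and resolution and in CD45.1 at baseline and plateau. Pdpn made up most of it at those 2 stages, with 54.5 and 210 CPM in CD45.1 cells and 46.5 and 139 in CD45.2 cells. At resolution Pdpn alone of these markers was higher in CD45.1 (107 against 102 CPM). Col1a1, Col3a1 and Dcn had 49.7, 29.5 and 128 CPM there in CD45.2 cells and 17.0, 10.3 and 63.6 in CD45.1 cells. The part of fibroblast RNA in these genes was not tested. Over the whole list of adhesion and matrix genes, 4 of 23 tested were higher in CD45.1 (Itgb7, Selplg, Mmp19 and Icam1) and 3 in CD45.2 (Sparc, Timp2 and Cspg4), 16 did not pass, and the median log2 ratio was 0.20 against -0.01 for all genes.

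The CD45.2 Vsig4 macrophages give a level for comparison, without a test. From baseline to resolution Cpne8 had 83.3, 100, 59.3 and 46.0 CPM there, Colec12 115, 136, 119 and 132, and Sparc 2812, 864, 1178 and 822. Gja1, in contrast to these, had 0, 54.6, 17.0 and 23.0 CPM in the CD45.2 Vsig4 macrophages, below its level in CD45.2 Aqp1 Fxyd2 macrophages of each library.

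Complement genes differed in both directions: 3 of 9 tested were higher in CD45.2 and 1 in CD45.1. C1qc, a chain of the C1q recognition molecule, had 2819, 715, 1801 and 1747 CPM in CD45.2 cells and 797, 314, 959 and 1130 in CD45.1 cells (log2 ratio -1.11, SE 0.18, adjusted p = 0.0055). CD45.2 was higher in every library, although the groups overlapped across stages. C1qa, another chain, had a log2 ratio of -0.94, while the third chain, C1qb, did not pass (-0.21, adjusted p = 0.55). Cfp, properdin, which stabilises the alternative pathway's convertase, was the gene higher in CD45.1, with 211, 109, 90.8 and 119 CPM against 48.3, 51.7, 78.9 and 62.8 (1.13). The Cfp call was lost without the baseline (0.80) or resolution library (1.23). Among 4 Fc receptor genes tested, Fcgrt, the neonatal Fc receptor that recycles IgG, passed (-1.57), and it was higher in CD45.2.

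Inflammatory genes passed in 3 of 15 tested cases, all higher in CD45.1, and the list's median log2 ratio was 0.74. Il1b, encoding interleukin-1 beta, had 241, 308, 868 and 294 CPM in CD45.1 cells and 39.0, 103, 15.8 and 126 in CD45.2 cells (log2 ratio 2.33, SE 0.46, adjusted p = 0.016). Cxcl2, an attractant of neutrophils, had 3877, 1261, 1872 and 2726 CPM against 1409, 67.2, 845 and 1536 (1.73), and Ccl6, a CC chemokine of myeloid cells, had 472, 193, 179 and 243 against 295, 134, 25.2 and 106 (1.12). All 3 calls were lost without the resolution library, where the ratios were 2.97, 2.11 and 1.10, and DESeq2 called neither Il1b (2.61) nor Cxcl2 (1.83). The Ccl6 call was lost in 8 of 20 alternatives, against 4 of 19 for Il1b and 5 of 21 for Cxcl2. Among the 8 were those without cells with osteoclast genes (0.88) and without the highest Scrublet doublet scores (0.89). Of 21 genes known to respond to tissue dissociation, 1 passed, Nfkbia (0.72), which is higher in CD45.1; its call was lost without the plateau (0.57) or resolution library (0.80). The list's median was 0.16, and its part in the inflammatory genes was not tested.

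Repair and alternative activation genes were split, with 3 of 14 tested higher in CD45.2 (Retnla, Igf1 and Tgfbr2) and 2 in CD45.1 (Vegfa and Mgl2). Retnla, a secreted protein of alternatively activated macrophages, had 2934, 22.4, 6.31 and 1831 CPM in CD45.2 cells and 1201, 0, 0 and 466 in CD45.1 cells (log2 ratio -1.65, SE 0.24, adjusted p = 0.0024). Its level was high at baseline and resolution and low at peak and plateau in both variants. In the CD45.2 Vsig4 macrophages it had 20.8, 100, 67.8 and 132 CPM. Igf1, a growth factor of repair, had 94.8, 34.5, 91.5 and 112 CPM against 9.08, 6.03, 25.5 and 41.0 (-1.77). Vegfa, a growth factor of vessels, had 34.1, 60.3, 90.8 and 37.9 CPM in CD45.1 cells and 7.43, 20.7, 9.46 and 18.7 in CD45.2 cells (1.59); its call was lost without the resolution library (2.22).

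Transcription factors of macrophages differed by smaller amounts. Maf, a factor of mature macrophages, was among 2 higher in CD45.2 (log2 ratio -1.03), and Id2 and Cebpb, which act in myeloid differentiation, in CD45.1 (0.90 and 0.86), with 17 of the 21 tested not passing. The calls of Maf (-1.11), Id2 (1.14) and Cebpb (0.97) were lost without the resolution library, those of Id2 (0.90) and Cebpb (0.91) also without plateau, and that of Id2 (0.77) without baseline. Among lysosome genes, 1 of 22 was higher in CD45.1, Ctsh, which encodes cathepsin H, with 354, 223, 210 and 255 CPM against 78.1, 48.3, 85.2 and 73.1 (1.90, SE 0.18, adjusted p = 0.00011). The tetraspanin Cd63 (-0.87) and the protease Ctsb (-0.58) were among 3 higher in CD45.2, and the Cd63 call was lost without the resolution library (-0.95). Among lipid genes, 2 of 14 passed, both higher in CD45.1: Lpl, lipoprotein lipase (1.43), and the lectin Lgals3 (0.69). The Lpl call was lost without baseline (1.04) or peak (1.23) and the Lgals3 call without resolution (0.73). Of 10 iron and haem genes, Cd163 and the haem oxygenase Hmox1 (-0.89) were higher in CD45.2, and Hmox1 lost its call without baseline (-0.78) or resolution (-0.86).

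Genes of the sodium pump and of ion and water transport, leaving out the rule genes Fxyd2 and Aqp1, showed no called difference. Of 23 such genes listed, 7 were tested. Of these, 0 passed in edgeR and 0 in DESeq2, with 1 at an unadjusted edgeR p under 0.05. Fxyd5, a relative of Fxyd2, had 2179, 3040, 2300 and 2578 CPM in CD45.1 cells and 1732, 1281, 1688 and 2334 in CD45.2 cells (log2 ratio 0.55, adjusted p = 0.11). In edgeR 0 genes passed among 5 interferon response, 15 cell cycle, 16 glycolysis and hypoxia, 20 oxidative phosphorylation and 7 growth factor receptor and survival genes, whose medians were 0.31, 0.81, 0.22, -0.17 and 0.52. At an unadjusted p under 0.05 they had 1, 7, 2, 0 and 6 genes, and DESeq2 called 0, 0, 0, 0 and 1 of them. A missed threshold does not show that the variants were alike.

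Of 6 tested markers of classical monocytes, Ccr2 and Plac8 were higher in CD45.1 and F13a1, the coagulation factor XIII A chain, in CD45.2 (log2 ratio -1.63). Of 5 tested markers of nonclassical monocytes, Clec4e passed, and it was higher in CD45.1 (1.08). The nonclassical markers summed to 561, 440, 797 and 774 CPM in CD45.1 cells from baseline to resolution and to 457, 259, 420 and 487 CPM in CD45.2 cells, so that CD45.1 was higher in 4 of 4 libraries. The classical ones summed to 1825, 3523, 3894 and 1973 CPM against 2295, 1377, 2587 and 2442, higher in CD45.1 at peak and plateau and in CD45.2 at baseline and resolution. Fn1 made up most of each sum, with 1328, 2377, 3026 and 1530 CPM in CD45.1 cells and 1375, 1017, 2233 and 2095 in CD45.2 cells. Ccr2, Plac8 and Ly6c2 were higher in CD45.1 in each library, and F13a1 was higher in CD45.2 in each. No other classical marker kept 1 direction in every library. The part of monocyte RNA in the called genes was not tested. Xist, expressed from the inactive X chromosome of females, had 207, 229, 434 and 244 CPM in CD45.1 cells and 301, 257, 391 and 334 in CD45.2 cells (-0.24, adjusted p = 0.60).

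Because the donor strain differs from the recipient at Ptprc, the gene of CD45, linked alleles could differ too. Ptprc lies on chromosome 1 at 138062859 to 138175756. As a description, it had 388, 350, 340 and 362 CPM in CD45.1 cells and 221, 169, 240 and 277 in CD45.2 cells. Of 77 tested genes within 20 Mb, 1 was called higher in CD45.1, Ptprc itself, and 2 in CD45.2, which is 3.90% against 3.43% of all tested genes with a position. One of the latter, Phlda3, lies 2.352 Mb away (-1.69) and was chosen for naming here after its values were seen. Whether an allele linked to Ptprc sets its ratio was not tested.

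Surface antibodies gave a second readout of the same cells. CD45.2 cells carried more Tim4, folate receptor beta and CD163, and CD45.1 cells more MHC class II, CD102, CD11c and CD11a. Of 86 antibodies tested by the same edgeR test, without the 2 against CD45, 7 passed (8.14%), 4 higher in CD45.1 (4.65%) and 3 in CD45.2 (3.49%). Tim4, a receptor for phosphatidylserine on dying cells and a marker of long-lived resident macrophages, had the largest difference. Its mean was 0.194 UMIs per cell at baseline, 1.08 at peak, 0.862 at plateau and 0.770 at resolution on CD45.1 cells, against 10.6, 14.9, 12.2 and 9.75 on CD45.2 cells. The log2 ratio of summed UMIs was -3.64 (SE 0.51, adjusted p = 0.0016, 12.5-fold), and the groups did not overlap. Its gene, Timd4, had too few UMIs to be tested.

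The FrB antibody, against the protein of Folr2, had 18.7, 5.00, 30.9 and 8.50 UMIs per CD45.1 cell and 93.9, 86.1, 86.8 and 38.7 per CD45.2 cell (log2 ratio -1.94, SE 0.37, adjusted p = 0.0079), the direction of its RNA. The CD163 antibody had 98.8, 32.2, 32.0 and 19.7 UMIs per CD45.1 cell and 397, 122, 282 and 91.7 per CD45.2 cell (-1.75, SE 0.33, adjusted p = 0.0079). CD163 was higher on CD45.2 cells in all 4 libraries, where its RNA was so in 3.

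The antibody I-A-I-E, against both class II molecules, had 30, 17.5, 20.4 and 51.0 UMIs per CD45.1 cell and 11.3, 15.7, 4.39 and 30.7 per CD45.2 cell (log2 ratio 1.69, SE 0.39, adjusted p = 0.024). CD102, or ICAM-2, an adhesion molecule that binds LFA-1, had 2.22, 8.38, 6.34 and 2.42 against 1.51, 2.83, 1.21 and 1.09 (1.98, adjusted p = 0.024). CD11c, the integrin alpha X chain, had 5.86, 2.15, 0.931 and 4.96 against 1.18, 1.28, 0.536 and 2.35 (1.82, adjusted p = 0.042). CD11a, the alpha chain of LFA-1, had 2.28, 24.0, 34.6 and 5.55 against 1.18, 27.4, 1.71 and 1.54 (2.21, adjusted p = 0.045). At peak CD11a had fewer UMIs per CD45.1 cell than per CD45.2 cell. Relative to all antibody UMIs but those against CD45, its log2 ratio in that library was 0.91. These 4 calls were all lost without the few cells that carried at least 10 UMIs of both CD45 antibodies, where the ratios were 1.65 for I-A-I-E, 1.95 for CD102, 1.75 for CD11c and 2.58 for CD11a, while the 3 higher on CD45.2 cells passed. CD11c also lost its call without the baseline (1.21) or resolution library (2.29).

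CD45.2 cells carried more antibody UMIs per cell in each library. The fitted ratios are relative to antibody totals after TMM normalization, without the 2 antibodies against CD45. Median antibody UMIs per cell, here with the 2 against CD45 included, were 728.5, 493, 696 and 415 on CD45.1 cells and 1203, 1096, 889 and 513.5 on CD45.2 cells. These medians thus hold in part the counts that chose the groups. CD11b, which the sort required, had a log2 ratio of 0.64 that did not pass (adjusted p = 0.080), and neither did Ly6C (1.30), which the sort excluded, nor MERTK (-1.70), at an adjusted p of 0.14 for both.

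**Figure D5:**
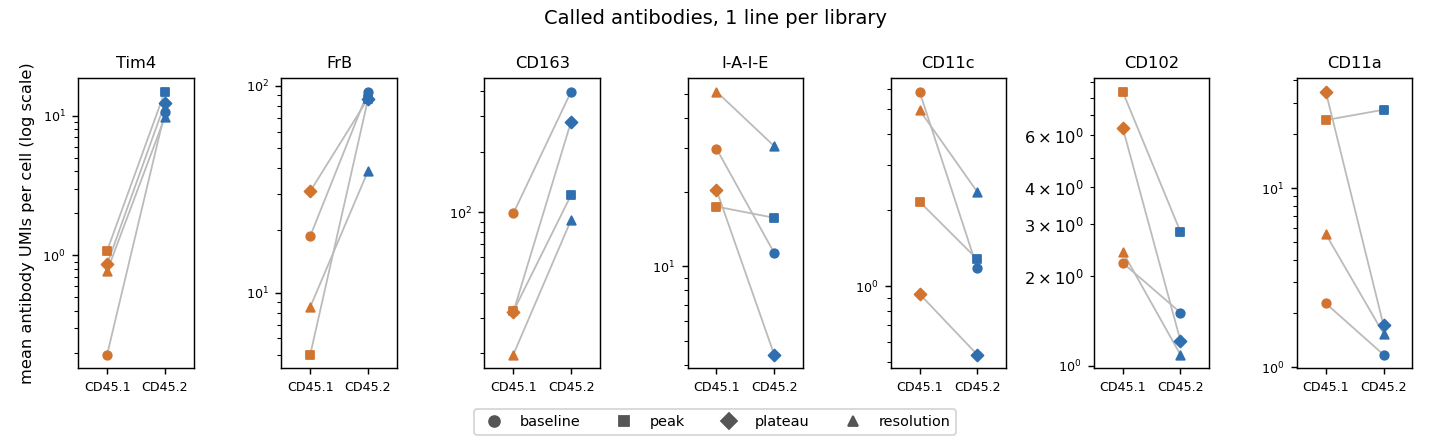
Mean antibody UMIs per cell (y axis, log scale, 1 scale per panel) on CD45.1 and CD45.2 Aqp1 Fxyd2 macrophages (x axis) for the 7 called antibodies, with 1 line per library. Tim4, FrB and CD163 go up to CD45.2 in all 4 libraries, and CD11a goes down in 3 of 4, its peak line going from 24.0 to 27.4.

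Whether these differences were larger or smaller than in other macrophages was tested on 3 libraries. No library had 10 CD45.1 Vsig4 macrophages, so these could not serve. The other C1q macrophages at peak, plateau and resolution were used instead, a choice made after seeing the data. By edgeR's test of the interaction, 0 of 6344 genes (0.0%) differed in their ratio between both populations, with 200 at an unadjusted p under 0.05. The difference of log2 ratios was 2.02 for Ccr2 (adjusted p = 0.59) and 0.13 for H2-Aa (adjusted p = 1.0), and for Retnla it was -3.55 (adjusted p = 0.38). Retnla had 0, 0 and 466 CPM in CD45.1 Aqp1 Fxyd2 macrophages and 22.4, 6.31 and 1831 in CD45.2 ones, while in the other C1q macrophages it had 88.7, 7.81 and 822 CPM in CD45.1 and 0, 0 and 472 in CD45.2 cells. Thus no gene's difference between the variants was shown to be particular to the Aqp1 Fxyd2 macrophages.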

How the data were processed

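RNA and 92 surface antibodies were counted in single cells of 4 libraries, 1 per stage. The authors deposited counts, as UMIs per gene or antibody in each cell barcode, not normalized and made with Cell Ranger 6.1.2 per the file headers and with the mm10 build per the submitters' processing notes, which also list Seurat 4.4.0 for no stated step. The members, gene lists and tests were chosen with earlier results of these data known.

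UMIs of the chosen cells were summed per library and CD45 variant. Genes passing filterByExpr were tested with edgeR 4.0.16 in R 4.3.3 (TMM, estimateDisp, glmQLFit, glmQLFTest, library as block), with Benjamini-Hochberg adjustment over all tested genes and a threshold of 0.05; the fit was tested on simulated data. The SE of a log2 ratio is its size divided by the square root of F. Both variants of a library come from the same mice, sort and run, which pairs them. Alternatives included DESeq2 1.42.0. Scrublet (scanpy 1.11.5) called 5, 0, 3 and 0 doublets, too few to be usable, so none were removed; without the 6% of cells with the highest scores is an alternative. Antibody sums were tested in the same way. Nothing in the labels says how many mice each library holds, so p-values measure the spread between these libraries.

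Named genes are the 12 highest and 12 lowest fitted ratios among called genes with 1 sign in all libraries and at least 30 UMIs, leaving out mitochondrial, ribosomal, haemoglobin, immunoglobulin, T cell receptor, unnamed and rule genes, and up to 3 genes of each list (the called ones by size, otherwise the most abundant). Other called genes of a list are named with its count; a few are not reported here. Gene positions come from RefSeq tables of GRCm38.p6.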

Additional observations from a re-analysis of the deposited data

Results flagged for a closer look

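Among 62 named genes and antibodies, 2 genes had 1 library whose log2 ratio of CD45.1 to CD45.2 stood apart from the other 3 by Dixon's test, which chance alone gives in about 1 in 20 groups. Colec12 had a ratio of -5.57 at plateau, while the other libraries lay between -4.26 and -4.11. Nfkbia had a ratio of 1.20 at plateau, while the others lay between 0.53 and 0.64.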

How the results depend on the processing

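Of the 55 called genes and antibodies that the naming rule gave, 14 kept their call in every alternative they were tested in (among them Ccr2, Ltb4r1, Ramp1, Itgb7, Napsa, Cpne8, Tcim, Colec12, Serpinh1, Ccdc106, Gja1, Fcgrt and Ctsh), and none of the 55 changed direction. The 95 genes higher in CD45.1 and 96 higher in CD45.2 became 312 and 305 with all genes of at least 1 UMI, 22 and 18 with at least 10 UMIs in every sum (2274 genes tested), 29 and 37 with cells thinned to 2000 UMIs (1028 genes tested), 12 and 15 with no replicate block, 259 and 298 with baseline and resolution only, and 127 and 145 without cells with osteoclast genes. Leaving out each library in turn gave 29 to 110 and 23 to 123, lowest without resolution. Under the other alternatives, DESeq2 among them, the counts were 64 to 110 and 73 to 123. The cause was not tested where it is not the number of genes or libraries. The 4 and 3 antibodies became 0 and 2 with at least 10 Fxyd2 UMIs, 0 and 0 with baseline and resolution only, 0 and 1 with no replicate block, 0 and 3 without cells with both CD45 antibodies and 1 and 3 without the highest Scrublet scores, and 3 to 4 and 3 to 5 without each library in turn. The mean difference in donor share of -39.1 points ran from -50.0 to -30.2 without each library and turned to 44.0 against Vsig4 macrophages. Bst2, which was not called (0.24), ran from -0.071 to 0.530 without each library, with -0.071 without peak, likewise with at least 20 cells of each variant, which leaves out the same library, and to -0.25 with baseline and resolution only. The interaction with other C1q macrophages, 0 genes in either direction, became 9 higher and 11 lower with all genes of at least 1 UMI, and 2 to 2 higher and 0 to 8 lower without each library. The planned interaction with Vsig4 macrophages was not run for want of CD45.1 cells. The alternatives without osteoclast-gene cells, with baseline and resolution only and with other C1q macrophages were chosen after seeing the data. Depth limits the peak library most, with 13 CD45.1 cells.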
